A study of Homo sapiens with 2 samples.

Results

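The 39 genes described here make cholesterol and fatty acids or control that synthesis. They were listed by name for their place in the pathway, with earlier results of these arrays already known. For each gene the probe sets annotated to it alone were taken, and of these the brightest by mean log2 signal represented the gene. Of the 39 genes, 36 had a signal above a floor of 47.9, the median of all signals, in at least 1 array, out of 12931 such genes on the array. By role, 18 were enzymes of cholesterol synthesis, 5 were sterol regulators, 4 moved sterols, 9 made or modified fatty acids and 3 activated fatty acids or started glycerolipid synthesis.

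The signals came from 2 oligonucleotide arrays of PC-3 cells, a human prostate cancer line established from a bone metastasis. Cells for 1 array, named siSHISA2 in the titles, had been transfected with a short hairpin RNA (shRNA) vector against SHISA2, and cells for the other, named siCONTROL, with a control shRNA vector. There was 1 array per group, so no difference could be set against variation between cultures and no test was made. All log2 ratios are SHISA2 knockdown over control, so that a negative value means a lower signal in the knockdown array. SHISA2 itself read 1506 in knockdown and 3536 in control cells on its only probe set (log2 ratio -1.23). As a technical yardstick, the log2 ratios of the 2 brightest probe sets of a gene differed with an SD (divided by the square root of 2) of 0.286 over 6428 genes. With the floor raised to 387.3, the 75th percentile of signals, the SD was 0.155 over 3088 genes. Signals under that floor were raised to it, which shrinks ratios of probe sets with a signal under it. Multiples of 0.155 may therefore be too large for genes with both signals above 387.3. The yardstick leaves out any variation between cultures or arrays. Of the 36 measured genes, 32 had both signals above 387.3 and are set against the smaller value. Of 5 epithelial markers, CDH1 and KRT19 had no measured probe set, and KRT18 read 17533 in knockdown and 18340 in control cells, KRT8 1990 and 2283, and EPCAM 313.1 and 353.6. No probe set was measured for 4 of 6 prostate luminal, 4 of 5 leukocyte, 2 of 4 endothelial, 3 of 5 fibroblast and 4 of 5 adipocyte markers. Among those measured, the endothelial CDH5 read 261.5 in knockdown and 155.9 in control cells (0.75), and the fibroblast COL1A1 577.0 and 787.2 (-0.45, with up to 0.92 on its other probe sets). The prostate luminal KLK3 read 251.0 in knockdown and 242.3 in control cells (0.05), and the adipocyte CIDEC 299.1 and 252.3 (0.25). The endothelial PECAM1 read 121.7 and 104.6 (0.22, with -0.56 on its other probe set). KLK2, CD3E and DCN were under the floor in control cells.

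Cells make cholesterol from acetyl-CoA. The mevalonate stretch builds isoprenoid units, which are joined to squalene, closed to lanosterol and trimmed to cholesterol. Sterol regulatory element-binding proteins (SREBPs, encoded by SREBF1 and SREBF2) switch on these enzymes when membrane sterol is low. SCAP escorts the SREBPs from the endoplasmic reticulum to the Golgi for cleavage, and INSIG proteins hold SCAP back when sterol is plentiful. The SREBF2 product acts mainly on sterol genes and that of SREBF1 mainly on fatty acid genes. Prostate cancer cells are known for active lipid synthesis.

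Most enzymes of cholesterol synthesis had slightly lower signals in the knockdown array. Of the 16 with a value, 13 had a log2 ratio below 0, and the median was -0.16. Among all measured genes 47.8% were below 0 and the median was 0.01, and among the 7650 genes with both signals above 387.3 the share was 49.8% and the median 0.00075. At least 1.2-fold lower were 6 of the 16, namely ACAT2, HMGCS1, SQLE, NSDHL, EBP and DHCR7, against 15.6% of all measured and 10.4% of the brighter genes. Only TM7SF2 was at least 1.2-fold higher, against 16.7% and 7.65% of those backgrounds. None of the 16 reached 1.5-fold in either direction, and HMGCS1 and EBP fell short of 1.2-fold after quantile normalization (-0.25 each) and after removal of a loess trend (-0.26 and -0.25). With probe sets averaged, 11 of the 16 were below 0 and 3 at least 1.2-fold lower, beside 46.4% and 14.4% of all measured genes. The count at least 1.2-fold lower was then near the share of all genes. Signals of a bulk culture do not tell fewer expressing cells from less RNA per cell.

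**Figure D1:**
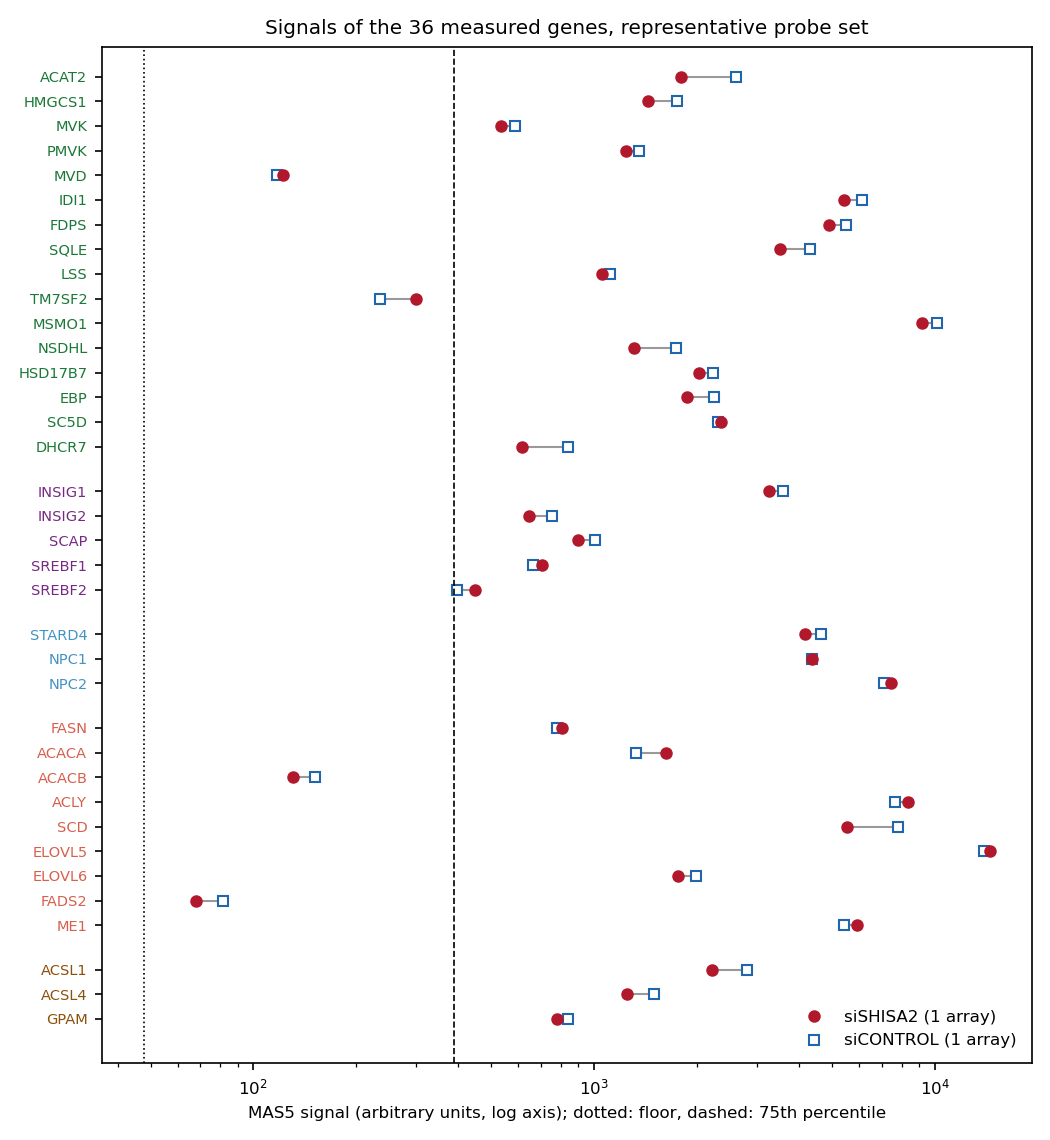
MAS5 signal (arbitrary units, log axis) of the representative probe set of each of the 36 measured genes, with a filled circle for the SHISA2 knockdown array and an open square for the control array (1 array each). Label colours mark, from the top, sterol synthesis, regulators, transport, fatty acid synthesis and acyl-CoA or glycerolipid entry; the dotted line is the floor (47.9) and the dashed line the 75th percentile (387.3). In 13 of the 16 sterol synthesis genes at the top the circle lies left of the square.

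In the mevalonate stretch, 6 of 7 genes were below 0, beside 47.8% of all measured genes, with a median of -0.16. ACAT2, the cytosolic thiolase that joins 2 acetyl-CoA, read 1797 in knockdown and 2616 in control cells (log2 ratio -0.54). That was the lowest ratio of all 36 genes, 3.51 times the yardstick of 0.155 in size, and 1.62% of the brighter genes had a lower one. Its only probe set is of a kind that can share probes between transcripts. HMGCS1, which adds a further acetyl-CoA, read 1444 in knockdown against 1746 in control cells (-0.27), and its dimmer probe set had a ratio of -0.17. Both probe sets of HMGCS1 were thus lower in the knockdown array, and 9.67% of the brighter genes had a lower ratio than the brighter of them.

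The next 5 genes differed little. MVK, the mevalonate kinase, read 532.1 in knockdown and 584.7 in control cells (-0.14). Its other measured probe set went the other way, at 181.8 in knockdown against 128.3 in control cells (0.50). PMVK, which adds the next phosphate, had a ratio of -0.12 (1243 in knockdown against 1355 in control cells), within the yardstick. MVD, the decarboxylase that follows, was dim at 122.5 in knockdown against 117.6 in control cells (0.06), and its sign changed to -0.02 after quantile normalization and after removal of a loess trend. IDI1, the isomerase of the isoprenoid units, had high signals of 5410 in knockdown against 6119 in control cells (-0.18). A second bright IDI1 probe set had a ratio of -0.28, whereas its dimmest one was at 0.24 from 67.5 in knockdown against 57.2 in control cells. FDPS, which joins the units to farnesyl diphosphate, read 4886 in knockdown against 5478 in control cells (-0.16). IDI1 and FDPS stood 1.15 and 1.07 times the yardstick below 0.

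Of the squalene and lanosterol steps, SQLE was the clearest. SQLE is squalene epoxidase, an oxygen-dependent control point of the pathway, and read 3520 in knockdown and 4301 in control cells (-0.29). All 4 of its probe sets were below 0, at -0.34 (1427 in knockdown against 1811 in control cells) and -0.18 for the next brightest and -0.95 for a probe set near the floor (52.1 in knockdown against 100.8 in control cells). LSS, the lanosterol cyclase, differed little at 1053 in knockdown against 1117 in control cells (-0.08). A dim LSS probe set was far higher at 124.4 in knockdown against 60.9 in control cells (1.03), so its probe sets did not share a direction. FDFT1, the squalene synthase, had no probe set listed for it alone and was not analysed here.

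In the stretch from lanosterol to cholesterol, 5 of 7 genes were below 0 (median -0.15), beside 47.8% of all measured genes. The lowest stood near the end. DHCR7, which reduces the last intermediate to cholesterol, read 614.6 in knockdown and 840.3 in control cells (-0.45), and its other probe set 584.5 in knockdown against 696.8 in control cells (-0.25). NSDHL, a dehydrogenase of the C4 demethylation complex, read 1309 in knockdown against 1741 in control cells (-0.41). The second NSDHL probe set, dimmer in both arrays, was level at 837.1 in knockdown against 801.5 in control cells (0.06). EBP, the sterol isomerase, read 1878 in knockdown against 2254 in control cells (-0.26), and its dimmer probe sets had ratios of -0.16 and -0.21. DHCR7 and EBP were thus lower on every measured probe set and NSDHL on 1 of 2.

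The other late enzymes were closer to level or higher. MSMO1, the C4-methyl sterol oxidase and the brightest sterol gene, read 9169 in knockdown and 10157 in control cells (-0.15). HSD17B7, the ketoreductase of the same complex, read 2035 in knockdown against 2231 in control cells (-0.13) on a probe set of a kind that can share probes. SC5D, the sterol desaturase, read 2353 in knockdown against 2315 in control cells (0.02), and was at -6.7e-05 after median centring. TM7SF2, a C14 sterol reductase, was the exception, at 301.4 in knockdown and 236.1 in control cells (0.35), signals below 387.3. CYP51A1, which removes the C14 methyl group, was read only by 2 probe sets that are also annotated to LRRD1, and no value was assigned to it.

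**Figure D2:**
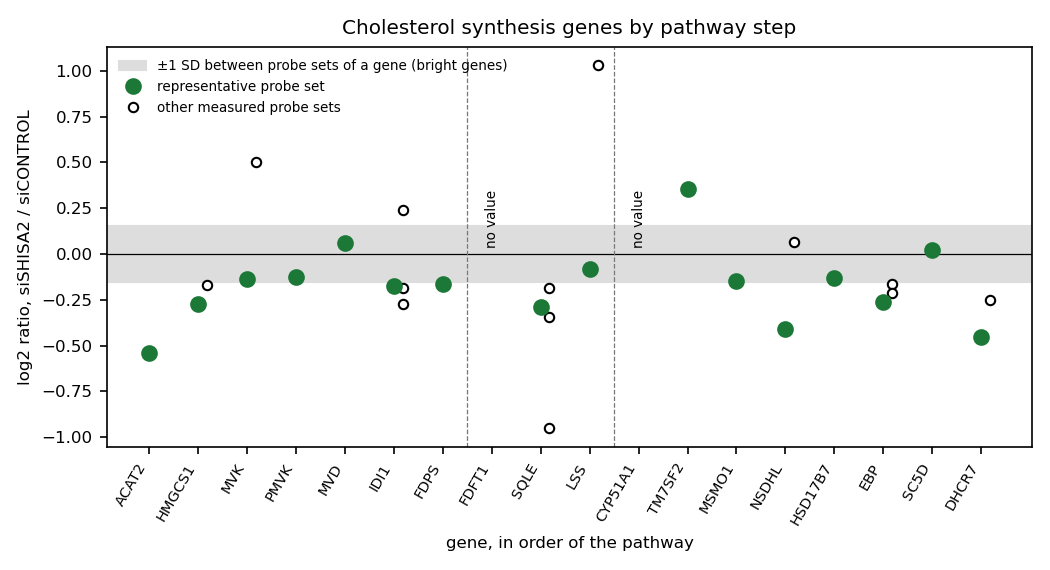
Log2 ratio of SHISA2 knockdown over control (y axis) for the 18 cholesterol synthesis genes in pathway order (x axis), with a filled circle for the representative probe set, open circles for other measured probe sets and a grey band of 0.155 to each side of 0, the SD between probe sets of bright genes. Dashed lines separate the mevalonate stretch, the squalene and lanosterol steps and the steps to cholesterol. The open circles above 0 for MVK, IDI1 and LSS are dim probe sets, and so is the lowest open circle, of SQLE (-0.95). The open circle above 0 for NSDHL (0.06) is a probe set with both signals above 387.3.

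Counted by probe set, 22 of the 29 measured probe sets of the sterol synthesis genes were below 0, with a median of -0.17. Of the 8 genes with several measured probe sets, HMGCS1, SQLE, EBP and DHCR7 were below 0 on all of them and none was above 0 on all. MVK, IDI1, LSS and NSDHL had probe sets on both sides. Neither count was set against all measured probe sets or genes, as those shares were not computed. Among the 14 sterol genes with both signals above 387.3, 13 were below 0, beside 49.8% of all genes that bright, and the median was -0.17. SC5D was the exception in that brighter set.

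Promoters of these genes are shown because sterol genes are known to be switched on by SREBP together with the CCAAT-binding factor NF-Y. The windows run from 250 bases before to 50 bases after a gene's start (RefSeq, build GRCh38.p14, first window listed for a gene), and 35 of the 39 genes have 1; ACAT2, FDFT1, SQLE and FASN were not in the table. The NF-Y box was searched as ATTGG and the sterol element as TCACNCCAC and, less its last base, as TCACNCCA, each on both strands, and matches may overlap. The 250 bases before the start are printed 5′ to 3′ on the gene's strand, with matches in capitals (CCAAT is the NF-Y box on the other strand). Those of HMGCS1 (chr5:43313413-43313662, minus strand), NSDHL (chrX:152830813-152831062, plus strand), EBP (chrX:48521558-48521807, plus strand) and MSMO1 (chr4:165327419-165327668, plus strand) come first, as 4 sterol enzymes below 0.
HMGCS1: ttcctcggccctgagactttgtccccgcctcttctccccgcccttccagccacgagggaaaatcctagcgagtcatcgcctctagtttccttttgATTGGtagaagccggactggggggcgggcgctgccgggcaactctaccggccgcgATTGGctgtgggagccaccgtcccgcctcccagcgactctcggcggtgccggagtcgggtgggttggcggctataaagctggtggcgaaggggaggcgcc
NSDHL: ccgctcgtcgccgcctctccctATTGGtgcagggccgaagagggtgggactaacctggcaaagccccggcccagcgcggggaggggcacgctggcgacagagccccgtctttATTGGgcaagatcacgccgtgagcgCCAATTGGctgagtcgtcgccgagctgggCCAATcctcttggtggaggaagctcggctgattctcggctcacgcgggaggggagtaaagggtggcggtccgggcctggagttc
EBP: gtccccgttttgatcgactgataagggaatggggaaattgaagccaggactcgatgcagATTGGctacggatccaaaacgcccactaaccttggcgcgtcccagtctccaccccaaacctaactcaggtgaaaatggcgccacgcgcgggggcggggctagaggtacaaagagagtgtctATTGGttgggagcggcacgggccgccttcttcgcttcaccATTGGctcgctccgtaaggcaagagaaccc
MSMO1: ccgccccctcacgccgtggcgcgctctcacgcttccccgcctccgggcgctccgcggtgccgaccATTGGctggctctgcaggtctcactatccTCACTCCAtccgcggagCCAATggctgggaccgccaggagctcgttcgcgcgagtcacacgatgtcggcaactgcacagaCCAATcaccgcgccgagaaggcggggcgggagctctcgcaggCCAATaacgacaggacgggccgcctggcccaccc

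The NF-Y box occurred in 12 of the 15 sterol synthesis windows, with up to 5 matches in MVK and NSDHL. It occurred in 36.6% of the 10480 windows of measured genes and in 35.7% of all 27305. At least 2 matches were present in 9 of the 15 windows, against 13.3% and 11.3%, and at least 3 in 6 of the 15, against 4.81% and 3.42%. In NSDHL 2 of its 5 matches overlap on opposite strands, 113 and 110 bases before the start. PMVK, IDI1 and CYP51A1 had no match in the first window. MVD, with 3 matches and a ratio of 0.06, and TM7SF2, with 1 match and a ratio of 0.35, show that the box was also present in genes that were not lower. Of the 12 sterol genes with a box, all have a log2 ratio and 9 were below 0, beside 13 of all 16 sterol genes with a value. PMVK (-0.12) and IDI1 (-0.18), without a box, were also below 0. A link between the box and the ratio was not tested.

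The full sterol element was found in none of the 15 sterol windows and in 1.11% of windows of measured genes. Less its last base it occurred in MVK and MSMO1, and in 3.36% of windows of measured genes. These letters are a strict form of a variable element, and their absence from a window says nothing about SREBP binding. SREBF2 (chr22:41832855-41833104, plus strand) was the only gene of the 35 with the full element, 133 bases before its start, followed by an NF-Y box 106 bases before it. SCD (chr10:100346983-100347232, plus strand) and ACACA (chr17:37406837-37407086, minus strand) are shown beside it as the lowest and the highest fatty acid synthesis gene in the arrays.
SREBF2: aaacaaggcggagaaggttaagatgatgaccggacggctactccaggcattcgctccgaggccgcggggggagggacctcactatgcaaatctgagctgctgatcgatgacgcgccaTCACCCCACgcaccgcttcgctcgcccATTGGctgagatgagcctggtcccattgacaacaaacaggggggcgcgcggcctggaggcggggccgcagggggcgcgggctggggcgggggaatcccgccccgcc
SCD: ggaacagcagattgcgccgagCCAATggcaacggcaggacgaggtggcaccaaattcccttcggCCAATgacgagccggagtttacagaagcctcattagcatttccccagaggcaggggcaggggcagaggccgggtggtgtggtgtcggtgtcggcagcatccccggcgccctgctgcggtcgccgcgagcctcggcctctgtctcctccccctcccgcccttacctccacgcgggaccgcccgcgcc
ACACA: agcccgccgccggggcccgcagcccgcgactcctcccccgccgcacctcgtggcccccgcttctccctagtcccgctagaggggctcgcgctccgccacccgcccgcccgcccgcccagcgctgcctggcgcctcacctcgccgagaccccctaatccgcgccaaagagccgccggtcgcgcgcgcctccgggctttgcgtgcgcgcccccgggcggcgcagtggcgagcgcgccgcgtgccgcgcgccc

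**Figure D3:**
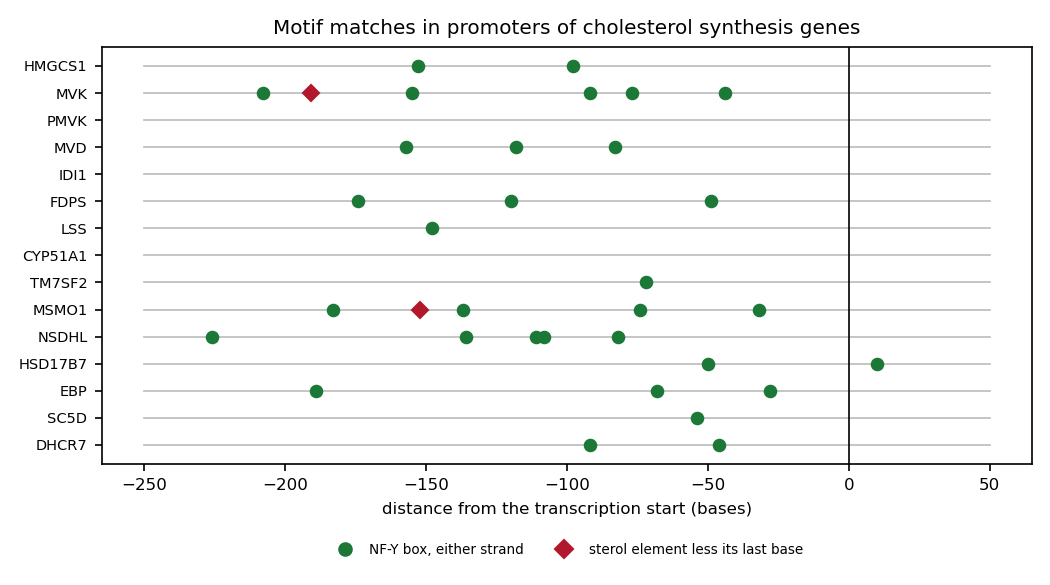
Position of motif matches relative to the transcription start (x axis, bases; the vertical line is the start) in the promoter windows of the 15 cholesterol synthesis genes that have one (rows, in pathway order). Circles are NF-Y boxes on either strand and diamonds the sterol element less its last base; 12 of the 15 windows hold a circle, and the diamonds are in MVK and MSMO1.

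The regulators did not move as a block. INSIG1, an SREBP target that retains SCAP, read 3257 in knockdown and 3584 in control cells (-0.14), and its other probe sets had ratios of -0.26 and -0.22. INSIG2, its homologue, read 645.8 in knockdown against 755.3 in control cells (-0.23) and SCAP 900.2 in knockdown against 1009 in control cells (-0.16), each on its only probe set. The SREBP genes themselves were on the other side. SREBF2 read 446.2 in knockdown and 397.6 in control cells (0.17), with 0.24 and 0.34 on its 2 dimmer probe sets, and SREBF1 704.1 in knockdown against 662.6 in control cells (0.09). All 3 SREBF2 probe sets were therefore above 0 while most of the enzymes were below it. The arrays measure transcripts and not the cleaved, active SREBP protein.

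Of the sterol transport genes, STARD4 was slightly lower, and NPC1 and NPC2 were nearly level. STARD4, a cytosolic sterol carrier that SREBP induces, read 4151 in knockdown and 4644 in control cells (-0.16). NPC1 and NPC2 pass cholesterol out of lysosomes. NPC1 read 4354 in knockdown against 4367 in control cells (-0.0042), with dimmer probe sets at 0.34 and -0.64, and NPC2 read 7459 in knockdown against 7113 in control cells (0.07). ABCA1, the cholesterol exporter, was under the floor on all 4 of its probe sets, with no signal above 27.0.

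Fatty acid synthesis genes went both ways. Of the 9, all measured, 4 were below 0 and the median was 0.05. FADS2 and SCD were at least 1.2-fold lower and ACACA at least 1.2-fold higher, that is 2 and 1 of 9, beside 15.6% and 16.7% of all measured genes, so these counts do not set the group apart. That median sits near the 0.01 of all measured genes, but it depends on the choice of probe set. Over all 21 measured probe sets of these genes 13 were below 0, with a median of -0.17, so gene and probe set summaries differ in sign. The share below 0 over all measured probe sets was not computed. Of the scalings, only quantile normalization turned the sign of the gene median, to -0.0081.

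The core enzymes from citrate to palmitate had no shared direction. ACLY, which splits citrate to acetyl-CoA, read 8351 in knockdown and 7645 in control cells (0.13), but its dimmer probe sets read 1362 in knockdown against 1559 in control cells (-0.19) and 1161 in knockdown against 1379 in control cells (-0.25). ACACA, the acetyl-CoA carboxylase that commits carbon to fatty acids, read 1632 in knockdown against 1325 in control cells (0.30) and 455.2 in knockdown against 345.4 in control cells (0.40). ACACA was the only fatty acid synthesis gene with several measured probe sets that were all above 0. ACACB, its counterpart at mitochondria, was dim at 131.1 in knockdown against 151.9 in control cells (-0.21), and its 6 other probe sets were under the floor. FASN, the synthase, read 803.1 in knockdown against 776.4 in control cells (0.05), and ME1, malic enzyme, which supplies NADPH, 5910 in knockdown against 5409 in control cells (0.13) and 2295 in knockdown against 2404 in control cells (-0.07).

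The enzymes that modify fatty acids held the lowest value. SCD, the stearoyl-CoA desaturase, read 5522 in knockdown and 7780 in control cells (-0.49), 3.20 times the yardstick, and 2.20% of the brighter genes had a lower ratio. Its next brightest probe set read 516.9 in knockdown against 836.6 in control cells (-0.69) and a dim one 118.0 in knockdown against 195.5 in control cells (-0.73), while another read 222.9 in knockdown against 139.2 in control cells (0.68). SCD was thus lower on 3 of 4 probe sets, all of kinds that can share probes. ELOVL6, which lengthens palmitate, was below 0 on all 3 probe sets, led by 1768 in knockdown against 1994 in control cells (-0.17). ELOVL5, an elongase of polyunsaturated chains and the brightest of the 36 genes, read 14489 in knockdown against 13948 in control cells (0.05), a sign that changed to -0.0081 after quantile normalization. FADS2, a desaturase of the same chains, stood near the floor at 67.8 in knockdown against 81.7 in control cells (-0.27).

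The genes for activation and glycerolipid entry were below 0 on all 7 of their probe sets, for which no share over all measured probe sets was computed. ACSL1, which couples long fatty acids to coenzyme A, read 2225 in knockdown and 2820 in control cells (-0.34), with -0.50 on its other probe set. ACSL4, which prefers arachidonic acid, read 1250 in knockdown against 1503 in control cells (-0.27), and its other probe sets, both with a knockdown signal under the floor, were also lower. GPAM, the mitochondrial acyltransferase that starts glycerolipid synthesis, read 780.7 in knockdown against 839.5 in control cells (-0.10), with -0.16 on the other. ACSL1 and ACSL4, 2 of the 3 genes, were each at least 1.2-fold lower, beside 15.6% of all measured and 10.4% of the brighter genes.

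Over all 36 measured genes, 25 were below 0, 10 were at least 1.2-fold lower and 2 at least 1.2-fold higher, with a median of -0.14. Among all measured genes 47.8% were below 0, 15.6% at least 1.2-fold lower and 16.7% at least 1.2-fold higher. Just past the 1.2-fold size stood EBP (-0.26) and just short of it INSIG2 (-0.23). Differences of this size are small beside that of SHISA2, and no member reached 1.5-fold.

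Further genes of lipid metabolism, in lists drawn from the pathway but with earlier results of these arrays known, gave the following. Of 10 measured partners of sterol synthesis, 8 were below 0, with a median of -0.17, and 3 were at least 1.2-fold lower. Among all measured genes 47.8% were below 0 and 15.6% at least 1.2-fold lower. LBR, the lamin B receptor, which is also a C14 sterol reductase, read 2941 in knockdown and 4547 in control cells (-0.63), the opposite direction to TM7SF2, which catalyses the same step. The electron donors POR (407.1 in knockdown against 562.0 in control cells, -0.47) and CYB5R3 (-0.32, with 0.13 on its other probe set) were also lower, and FAXDC2 read -0.21 at dim signals.

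Of 13 genes that process or degrade SREBP-pathway proteins or bind beside SREBP, 10 were below 0, with a median of -0.09. At least 1.2-fold lower was 1 of them. Among all measured genes these shares were 47.8% and 15.6%. NFYA, a subunit of NF-Y, read 618.7 in knockdown and 793.3 in control cells (-0.36), with up to 0.63 on its other probe sets. ERLIN1 (-0.26, with 0.09 on its other probe set), ERLIN2 (-0.23), both of the sterol-dependent degradation machinery, and the SREBP protease MBTPS1 (-0.26, with 0.88 on its other probe set) followed. Among 16 other fatty acid synthesis genes 11 were below 0 (median -0.08) and 2 at least 1.2-fold lower, beside 47.8% and 15.6% of all measured genes. ACSS2, which makes acetyl-CoA from acetate, was lowest at 433.2 in knockdown against 626.3 in control cells (-0.53), HACD2, a dehydratase of chain elongation, had a ratio of -0.34, and FADS3 (0.46, with -0.38 on its other probe set) and OXSM (0.24) were above 0.

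Sterol esterification and transport genes were balanced, with 6 of 13 below 0, beside 47.8% of all measured genes, and a median of 0.02. GRAMD1C, a carrier of plasma membrane cholesterol, had a ratio of -0.52, and SOAT1, which esterifies cholesterol, was at -0.29 and lower on all 3 probe sets. STARD5 (0.87) and the oxysterol receptor NR1H3 (0.30) were above 0 at dim signals. Of 14 other glycerolipid genes only 4 were below 0 (median 0.15), beside 47.8% of all measured genes. AGPAT4 (-0.46) and GPAT3 (-0.34) were the lowest, and AGPAT2 was at 0.29. PLIN2, under the floor in control cells, was at least 1.25-fold higher on 1 probe set and at -0.23 on the other. Fatty acid oxidation genes had 13 of 18 below 0 and a median of -0.08, with HADH at -0.47, ECI2 at -0.33, CPT2 at -0.27 and CPT1A at -0.19 (0.14 on another probe set). Among all measured genes 47.8% were below 0. At least 1.2-fold lower were 3 of the 18 oxidation genes, beside 15.6% of all measured genes, so that count does not set the list apart.

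**Figure D4:**
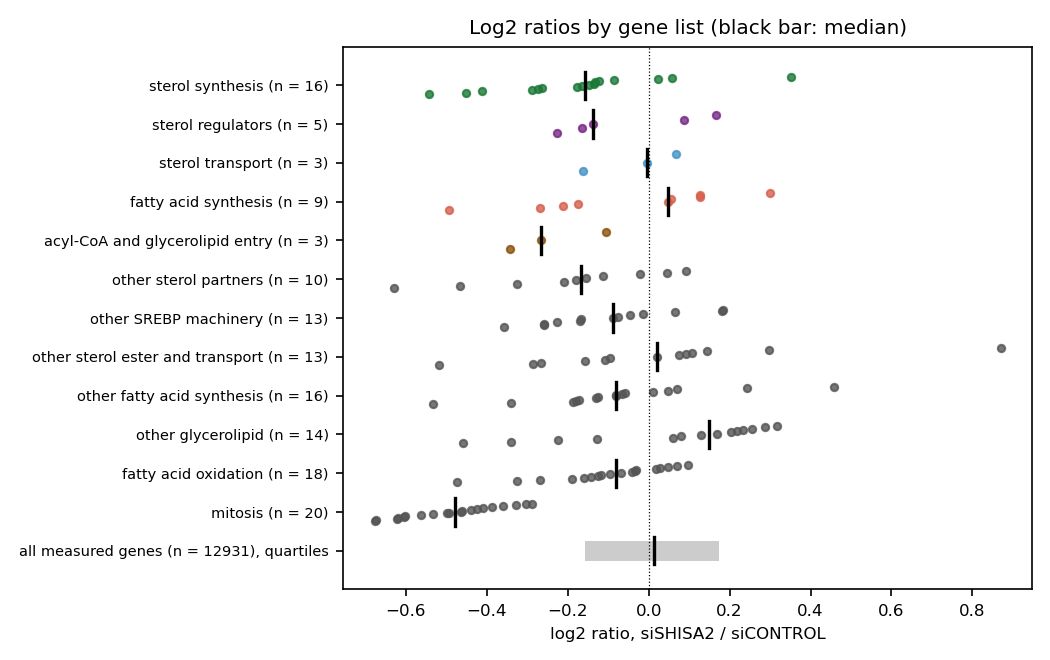
Log2 ratio of SHISA2 knockdown over control (x axis) for each measured gene (points) of the 5 groups described here and of 7 comparison lists (rows), with a black bar at the median and, in the bottom row, the quartiles of all 12931 measured genes. The sterol synthesis median lies at -0.16, the fatty acid synthesis median at 0.05 and the mitosis median at -0.48.

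Genes of mitosis moved in the same direction by more. All 20 measured mitosis genes were at least 1.2-fold lower, with a median of -0.48 and values from -0.68 to -0.29. Among all measured genes 15.6% were at least 1.2-fold lower. This list, too, was chosen with earlier results of these arrays known. Examples are KIF23 (-0.68), CDC25C (-0.67, with 0.27 on its other probe set), CCNA2 (-0.62) and PLK1 (-0.62). Their part in the lower sterol synthesis signals was not tested.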

How the data were processed

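RNA of PC-3 cells was measured on 1 array per group. The deposited values are MAS5 signals, intensities on a linear scale that, per the submitters' processing notes, the authors made with this program (version not stated), which compares perfect-match and mismatch probes. The mean after trimming 2% at each end was 500.1 in both arrays, and no further scaling was applied. Near background MAS5 signals are noisy. Of 54675 probe sets, 42898 are listed in the platform annotation, 41097 of them with 1 gene symbol, 1801 with several (which name no gene), and 11777 are not listed.

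Signals under the floor (47.9) were raised to it before log2 was taken. With 1 array per group no p-value exists; the number of arrays limits the precision. The 1.1-, 1.2-, 1.5- and 2-fold thresholds are sizes, not tests. Alternatives were median centring, quantile normalization, loess (span 0.3), floors of 11.3 and 387.3, no floor with a pseudocount of 1, and other choices of probe set. All members and all measured markers were named, and of each of 7 other lists up to 4 genes with the largest ratio in size. Members and lists were chosen with earlier results of these data known. The code was checked on simulated data, with changes put into bright genes only and larger than most reported here. That simulation had no variation between arrays or cultures, so it does not bear on the small differences described. Python 3.11.15, pandas 2.3.3 and statsmodels 0.14.6 were used.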

Additional observations from a re-analysis of the deposited data

How the results depend on the processing

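The sterol synthesis median stayed between -0.18 and -0.14 under the 9 alternatives and below the median of all genes under each. The count below 0 was 14 of 16 after each of the 3 scalings and 11 of 16 with probe sets averaged. Without _x_at and _s_at probe sets it was 8 of 9, and on the second brightest probe set, where fewer genes have a value, 5 of 8. Among all genes the share below 0 was 51.6% after median centring, 49.6% after quantile normalization and 49.8% after loess. That share was 46.4% with probe sets averaged, 48.5% without _x_at and _s_at probe sets and 49.0% on the second brightest probe set. The number at least 1.2-fold lower was 6 of 16 as reported, 4 of 16 after quantile normalization and after loess (without HMGCS1 and EBP), 3 of 16 with probe sets averaged, 2 of 8 on the second brightest probe set and 0 of 16 at 1.5-fold. The fatty acid synthesis median of 0.05 became -0.11 with probe sets averaged, -0.067 without _x_at and _s_at probe sets and -0.13 on the second brightest probe set. With the higher floor 2 of 7 fatty acid synthesis genes were below 0, beside 50.1% of all genes. NSDHL had 0.063 on its second brightest probe set. The cause of these shifts was not tested beyond the change of probe set itself. Of 293 single-gene values under the alternatives, 285 lay within 0.286 of the reported one. No paired analysis was possible because each group has 1 array, and for the same reason no replicate could be left out. Signals near the floor limit MVD, FADS2 and ACACB.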
